A study of Homo sapiens with 8 samples.

Results

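The genes described are those of the adherens junction core: the classical cadherins CDH1, CDH2, CDH3 and CDH4, the atypical cadherin CDH13, the catenins CTNNB1, CTNNA1 and CTNND1, and the nectin-associated adaptor gene AFDN. They were chosen by symbol, 9 genes in all, with earlier results of these data known. The identifiers of 6 of the 9 (CDH1, CDH3, CTNNB1, CTNNA1, CTNND1 and AFDN) matched 1 row each among the 32066 genes counted, and all 6 passed the filter on low counts that left 15665 genes for testing. CDH2, CDH4 and CDH13 were not analysed here. RNA was sequenced from DU145, an established epithelial prostate carcinoma line derived from a brain metastasis. The groups were cells with exogenous SOX11, a transcription factor of neural development in the SOX family (4 libraries), and control cells (4 libraries). Both groups were cultured in the same medium, and the labels give neither the vector nor whether the cells are 1 clone. The labels do not say that replicates came from separate cultures, so p-values measure only the spread between these libraries.

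Adherens junctions hold epithelial cells to their neighbours. The extracellular part of a classical cadherin binds the same cadherin on the next cell, while its cytoplasmic tail binds p120-catenin (CTNND1) near the membrane and beta-catenin (CTNNB1) further along. Alpha-catenin (CTNNA1) links beta-catenin to actin, and afadin (AFDN) links the nectins, a second group of adhesion receptors, to the same actin belt. Beta-catenin released from the junction can also act as a coactivator in WNT signalling, and loss of E-cadherin (CDH1) is a familiar event in carcinoma invasion.

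Total counts were 15309037 to 16740516 in the SOX11 libraries and 14641250 to 18706095 in the control libraries. SOX11 had 303 to 317 counts in the SOX11 libraries and 0 in each control library. Of 10 epithelial markers, 10 averaged 1 CPM or more (counts-per-million, scaled with TMM factors). Their summed level was 2766 to 2817 CPM in SOX11 libraries and 3155 to 3648 CPM in control libraries. Of the 10, 2 were called higher and 5 lower, against 10.3% and 9.67% of all tested genes. The largest parts of the sum were keratins. KRT7 averaged 1437 CPM in SOX11 and 1608 CPM in control libraries, and KRT8 590 and 840 CPM. Of the 10 log2 fold changes, 4 were above 0 and 6 below. EPCAM averaged 47.7 CPM in SOX11 and 44.6 CPM in control libraries, and CLDN4 9.63 and 4.86 CPM. Markers of fibroblasts (6 of 8 with a row) summed to 5.90 to 7.71 CPM in SOX11 and 3.33 to 5.43 CPM in control libraries. Only COL1A1 of these averaged 1 CPM or more, at 6.02 CPM in SOX11 and 3.61 CPM in control libraries. COL3A1 went the other way, at 0.0958 and 0.289 CPM. Endothelial markers summed to at most 0.532 CPM in SOX11 and 0.832 CPM in control libraries, and blood markers (3 of 5 with a row) to at most 0.946 CPM in SOX11 and 0.893 CPM in control libraries. Of 6 neural markers listed, 2 had a row, SYP and GFAP, with a summed level of 2.62 to 4.62 CPM in SOX11 and 3.89 to 4.05 CPM in control libraries.

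SOX11 replicate 1 stood apart in genes of luminal prostate cells. It held 161 counts of KLK2, a kallikrein protease gene, against 0 to 3 in each of the other 7 libraries. KLK3, which encodes prostate-specific antigen, had 95 counts there and at most 4 elsewhere. FOLH1 had 107 counts there and at most 3 elsewhere, HOXB13 had 84 and at most 2, and TMPRSS2 had 24 and at most 1. The highest of these other counts of KLK2, KLK3, FOLH1 and HOXB13 were all in control replicate 4, where TMPRSS2 had 0. Besides these 2 libraries, KLK3 and HOXB13 had 0 counts, FOLH1 at most 1 and KLK2 at most 2. SOX11 replicate 1 held 31 genes with 20 or more counts there and 4 or fewer in every other library, and the same count was 0 for each of the other 7 libraries. CDH1 is also expressed by luminal prostate cells, and this library had the highest CDH1 level of the SOX11 group. The part of these transcripts in the results below was not tested. The fold changes of the 6 genes and the counts of the gene lists are given with and without this library. Of 27 called genes named from the lists, 25 were still called without it, all 27 kept their direction, and the 2 no longer called were CDHR1 and PARD3.

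**Figure D1:**
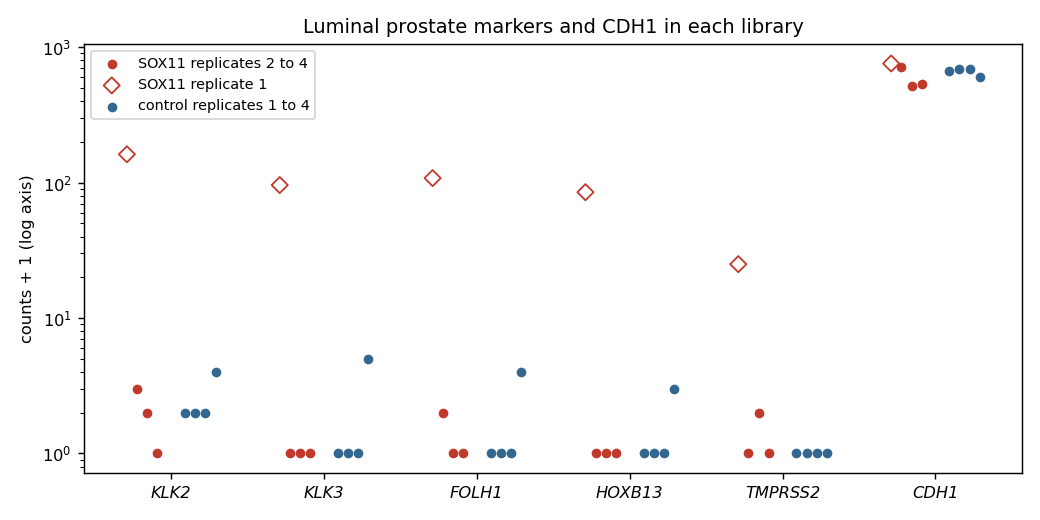
Counts plus 1 (log axis) of 5 luminal prostate markers and of CDH1 in each library, with SOX11 replicate 1 as an open diamond, SOX11 replicates 2 to 4 in red and the 4 control libraries in blue. For these 5 markers that library lies far above the rest (161 counts of KLK2 against at most 3), while CDH1 was counted in all 8 libraries.

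In SOX11 cells the alpha-catenin gene CTNNA1, the p120-catenin gene CTNND1 and the afadin gene AFDN were higher than in control cells and the P-cadherin gene CDH3 was lower, all by less than 1.3-fold. E-cadherin (CDH1) and beta-catenin (CTNNB1) did not pass the test. Thus 4 of 6 genes were called by edgeR's quasi-likelihood test (adjusted p below 0.05), 3 higher and 1 lower. Over all tested genes 20.0% were called, 10.3% higher and 9.67% lower, and of genes that averaged 10 CPM or more, as these 6 did, 24.9% were called. SOX11 and control libraries were fully apart in 3 of the 6 (CTNNA1, CTNND1 and AFDN), against 21.1% of all tested genes and 25.8% of those averaging 10 CPM or more. The call of CDH3 ended without SOX11 replicate 1 (adjusted p = 0.0649), which left 3 of 6 called against 16.4% of all genes in that fit. Without SOX11 replicate 3 the calls of CDH3 (adjusted p = 0.115) and AFDN (0.0556) both ended. In that fit 2 of 6 were called, against 2636 of all 15835 genes tested.

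**Figure D2:**
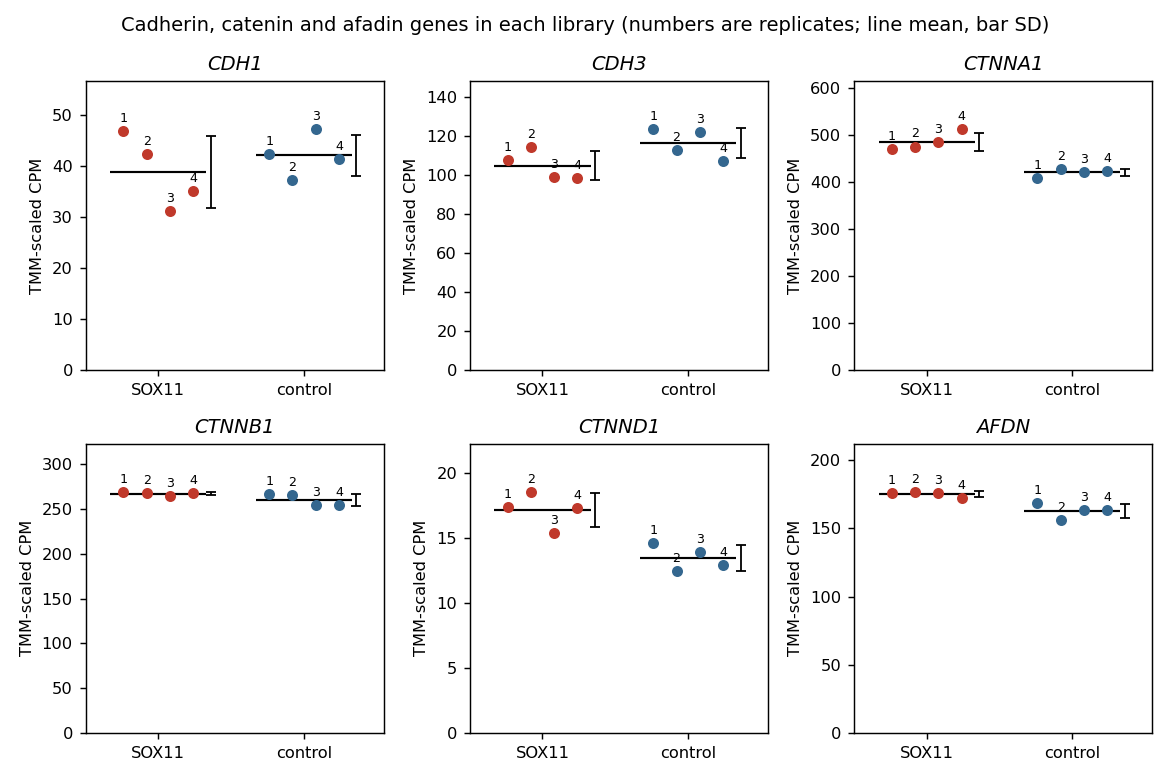
TMM-scaled CPM of the 6 genes in each of the 4 SOX11 libraries (red, left) and 4 control libraries (blue, right), with replicate numbers, the group mean as a line and the SD as a bar. The groups are apart for CTNNA1, CTNND1 and AFDN, and for CDH1 the SOX11 libraries spread from 31.3 to 46.8 CPM.

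Among the cadherins, CDH1 encodes E-cadherin, the main adhesion receptor of epithelia (ENSG00000039068, chromosome 16, 68737225 to 68835548, plus strand, GRCh38). In CPM, SOX11 replicates 1 to 4 had 46.8, 42.3, 31.3 and 35.0, and control replicates 1 to 4 had 42.4, 37.3, 47.2 and 41.4. The lowest pair of libraries was in the SOX11 group, but its other pair lay within the control range, so the groups overlapped. CDH1 averaged 38.8 ± 6.99 CPM in SOX11 and 42.1 ± 4.05 CPM in control libraries (SD, n = 4 each). The log2 fold change was -0.11 ± 0.14 (SE, edgeR adjusted p = 0.660), with a 95% interval from -0.43 to 0.21. The data therefore allow anything from a 0.742-fold to a 1.16-fold level. Without SOX11 replicate 1 the log2 fold change was -0.21 (adjusted p = 0.212, 95% interval -0.44 to 0.02). Leaving out SOX11 replicate 3 brought it to -0.02 (adjusted p = 0.931) and leaving out control replicate 3 to -0.05 (adjusted p = 0.859), so single libraries set the size of this difference.

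CDH1 varied more between libraries of a group than almost any other well-expressed gene. Its within-group SD of log2 CPM was 0.21, higher than in 99.5% of the 9697 genes averaging 10 CPM or more, whose median was 0.07. The same SD was 0.10 for CDH3 and 0.11 for CTNND1. It was 0.04 for CTNNA1, 0.04 for AFDN and 0.03 for CTNNB1, and the CTNNB1 value was above only 3.57% of those genes.

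CDH3 encodes P-cadherin, the classical cadherin of basal epithelial cells (ENSG00000062038, chromosome 16, 68636189 to 68722616, plus strand) and lies just upstream of CDH1 on the same strand. In CPM, SOX11 replicates 1 to 4 had 107, 114, 98.7 and 98.4, and control replicates 1 to 4 had 123, 112, 122 and 107. SOX11 replicates 3 and 4 were below every control library, while SOX11 replicates 1 and 2 lay within the control range. CDH3 averaged 105 ± 7.57 CPM in SOX11 and 116 ± 7.75 CPM in control libraries (SD, n = 4 each). It fell by a log2 fold change of -0.15 ± 0.05 (SE, edgeR adjusted p = 0.0394). Without SOX11 replicate 1 the log2 fold change was -0.16 (adjusted p = 0.0649). The CDH3 call rested on single libraries. Besides SOX11 replicates 1 and 3, it ended without SOX11 replicate 4 (adjusted p = 0.105), control replicate 1 (0.103) or control replicate 3 (0.110). With upper quartile scaling it ended as well (adjusted p = 0.0596).

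The CDH1 and CDH3 coding sequences of the GENCODE 29 transcripts with the longest coding sequence (2709 and 2487 bases) were compared to see how far reads of these paralogues could be confused. They were identical at 66.4% of aligned bases, and the longest run they shared was 17 bases. That run starts at coding base 1387 of CDH1 and 1186 of CDH3 and is shown because it is the longest stretch that cannot be told apart.
CDH1 and CDH3 shared run: ttggattttgaggccaa
For the other paralogue pairs the longest shared run was 17 bases for CTNNB1 and JUP, 15 for CTNND1 and ARVCF, and 11 for CTNNA1 and CTNNAL1. Within each library, CDH1 had 0.436, 0.370, 0.317 and 0.356 counts per count of CDH3 in SOX11 replicates 1 to 4, and 0.344, 0.332, 0.387 and 0.387 in control replicates 1 to 4. Of these ratios the highest and the lowest were both in SOX11 libraries. Annotated antisense genes overlap both cadherin genes, over 5.62% of the exon bases of CDH1 and 11.1% of those of CDH3. The library kit marks strand, but the strand setting of the counting is not given in the sources used here.

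Among the catenins, CTNNA1 encodes alpha-E-catenin, the actin-linking subunit that binds beta-catenin (ENSG00000044115, chromosome 5, 138610967 to 138935034, plus strand). In CPM, SOX11 replicates 1 to 4 had 470, 476, 485 and 513, and control replicates 1 to 4 had 410, 428, 422 and 424. Every SOX11 library was above every control library. CTNNA1 averaged 486 ± 18.9 CPM in SOX11 and 421 ± 7.91 CPM in control libraries (SD, n = 4 each). It rose by 0.21 ± 0.03 on the log2 scale, a 1.15-fold difference (edgeR adjusted p = 1.02e-05). Without SOX11 replicate 1 the log2 fold change was 0.22 (adjusted p = 1.64e-05). Over all 16 alternatives its log2 fold change was 0.18 to 0.22 and the call held in each.

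CTNNB1 encodes beta-catenin, the bridge between cadherin tail and alpha-catenin (ENSG00000168036, chromosome 3, 41194741 to 41260096, plus strand). In CPM, SOX11 replicates 1 to 4 had 269, 268, 264 and 268, and control replicates 1 to 4 had 266, 266, 254 and 255. The SOX11 libraries were nearly level, and control replicates 1 and 2 lay within their range while control replicates 3 and 4 were lower. CTNNB1 averaged 267 ± 2.07 CPM in SOX11 and 260 ± 6.80 CPM in control libraries (SD, n = 4 each). The log2 fold change of 0.04 ± 0.03 did not pass the test (edgeR adjusted p = 0.429), and its 95% interval ran from -0.02 to 0.10, a 0.983-fold to 1.07-fold level. It was 0.03 without SOX11 replicate 1 (adjusted p = 0.544).

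A ratio within a library needs no scaling between libraries. There were 1.75, 1.77, 1.84 and 1.92 counts of CTNNA1 per count of CTNNB1 in SOX11 replicates 1 to 4, and 1.54, 1.61, 1.66 and 1.67 in control replicates 1 to 4. The groups did not overlap in this ratio, which averaged 1.82 ± 0.0751 in SOX11 and 1.62 ± 0.0586 in control libraries (SD, n = 4 each, not tested since the genes were chosen with results known). CTNND1 per count of CTNNB1 did not overlap either (0.0582 to 0.0692 in SOX11, 0.0467 to 0.0549 in control libraries). CTNNA1 and CTNND1 were already apart in CPM and CTNNB1 varied little, so these ratios are not separate evidence. Of single genes averaging 10 CPM or more, 25.8% were apart, and the share of gene ratios that do not overlap was not computed. AFDN per count of CTNNB1 overlapped narrowly, at 0.6427 to 0.6647 in SOX11 and 0.5854 to 0.6429 in control libraries. AFDN per count of CTNNA1 also overlapped (0.335 to 0.375 in SOX11, 0.364 to 0.411 in control libraries).

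CTNND1 encodes p120-catenin, which binds the juxtamembrane part of the cadherin tail and slows cadherin endocytosis (ENSG00000198561, chromosome 11, 57753243 to 57819546, plus strand). In CPM, SOX11 replicates 1 to 4 had 17.4, 18.6, 15.4 and 17.3, and control replicates 1 to 4 had 14.6, 12.4, 13.9 and 13.0. Every SOX11 library was above every control library, with the closest pair at 15.4 and 14.6 CPM. CTNND1 averaged 17.2 ± 1.32 CPM in SOX11 and 13.5 ± 0.979 CPM in control libraries (SD, n = 4 each). It rose by 0.35 ± 0.08 on the log2 scale, 1.28-fold (edgeR adjusted p = 0.00138), and without SOX11 replicate 1 by 0.34 (adjusted p = 0.00565). This was the largest fold of the 6 genes at the lowest level, 253 to 314 counts in SOX11 and 187 to 230 counts in control libraries.

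The CTNND1 level is uncertain. RefSeq (GRCh38.p14) lists a read-through gene, TMX2-CTNND1, from 57712523 to 57819180 on chromosome 11, and CTNND1 itself from 57761802 to 57819540, so the longer gene spans nearly all of it. In GENCODE 29 the 2 genes lie on the same strand and share only 3.65% of the CTNND1 exon bases. The annotation the authors counted on and its treatment of shared reads were not given in the sources used here, and how many CTNND1 reads went uncounted was not tested.

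AFDN encodes afadin, which binds nectins and actin (ENSG00000130396, chromosome 6, 167826922 to 167972023, plus strand). In CPM, SOX11 replicates 1 to 4 had 176, 177, 176 and 172, and control replicates 1 to 4 had 168, 156, 163 and 164. Every SOX11 library was above every control library. AFDN averaged 175 ± 2.12 CPM in SOX11 and 163 ± 5.25 CPM in control libraries (SD, n = 4 each). It rose by 0.11 ± 0.03 on the log2 scale, 1.08-fold (edgeR adjusted p = 0.0215). Without SOX11 replicate 1 the log2 fold change was 0.10 (adjusted p = 0.0473). Adjusted p was 0.122 without control replicate 2, 0.0556 without SOX11 replicate 3 and 0.0730 with no filter on low counts, and each of these ended the call.

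**Figure D3:**
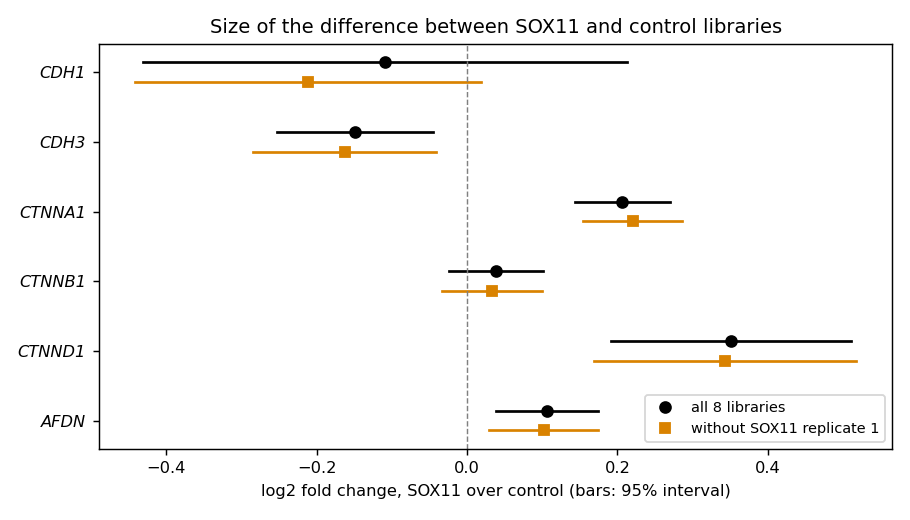
Log2 fold change, SOX11 over control, with its 95% interval for the 6 genes, from all 8 libraries (black) and without SOX11 replicate 1 (orange). The intervals of CTNNA1, CTNND1 and AFDN lie above 0 in both fits and that of CDH3 below 0 in both. The CDH1 interval spans 0, and its log2 fold change shifts from -0.11 to -0.21. Intervals are not adjusted over all genes as the calls are, and the CDH3 call ended without SOX11 replicate 1.

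CTNNA1 and AFDN, the higher genes with a promoter in RefSeq's table, are shown with the bases from 250 before to 50 after an annotated start (GRCh38.p14, plus strand). The table matched 3 of the 6 genes, and for CTNNA1 the first of 4 listed starts is given. Capitals mark matches to CACCTG, the E-box form bound by ZEB and SNAIL repressors, or to the SOX-type letters ACAAAG or ACAATG, searched on both strands.
CTNNA1, chr5:138753175-138753474: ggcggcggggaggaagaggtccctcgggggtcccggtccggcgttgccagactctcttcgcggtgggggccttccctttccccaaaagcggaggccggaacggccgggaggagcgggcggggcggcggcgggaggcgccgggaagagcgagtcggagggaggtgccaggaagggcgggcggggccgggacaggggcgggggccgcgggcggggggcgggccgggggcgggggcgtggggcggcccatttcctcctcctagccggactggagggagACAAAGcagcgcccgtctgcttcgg
AFDN, chr6:167827385-167827684: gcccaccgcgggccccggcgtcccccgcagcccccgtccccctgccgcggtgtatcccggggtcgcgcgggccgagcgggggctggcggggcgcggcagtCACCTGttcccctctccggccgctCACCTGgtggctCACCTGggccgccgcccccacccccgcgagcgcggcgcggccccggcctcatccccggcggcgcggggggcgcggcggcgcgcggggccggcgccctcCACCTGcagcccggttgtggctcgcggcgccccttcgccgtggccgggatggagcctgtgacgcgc
The AFDN window held 4 CACCTG matches, all on the plus strand, and 0 SOX-type matches. The CTNNA1 window held 0 CACCTG and 1 SOX-type match, its second start had 1 SOX-type match, and its other 2 starts had 0 of either. The CTNNB1 window held 0 of either. Of 34796 distinct promoters of the same 300-base length, 20.6% held CACCTG and 0.155% held it 4 or more times, and 24.5% held a SOX-type match. The cut of 4 is the AFDN count itself, so the share of 0.155% is no test of AFDN. The promoters were not matched for base composition, and the AFDN window is 83.7% G or C. A match is a description of the letters and not a binding site.

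Levels of different genes were compared per kilobase of annotated exons. CTNNA1 was highest, at 55.0 ± 2.14 CPM per kilobase in SOX11 and 47.7 ± 0.896 in control libraries (SD, n = 4 each). CTNNB1 followed at 22.4 ± 0.174 in SOX11 and 21.8 ± 0.570 in control libraries. CDH3 stood at 16.8 ± 1.21 CPM per kilobase in SOX11 and 18.6 ± 1.24 in control libraries, and AFDN at 12.8 ± 0.155 in SOX11 and 11.9 ± 0.382 in control libraries. CDH1 was lower, at 6.29 ± 1.13 CPM per kilobase in SOX11 and 6.81 ± 0.656 in control libraries. CTNND1 was last, at 1.95 ± 0.150 in SOX11 and 1.53 ± 0.111 in control libraries. Ranges over libraries did not overlap between neighbours in this order, in either group. P-cadherin transcripts therefore outnumbered E-cadherin transcripts per length in all 8 libraries.

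The order depended on the length used. With the length of the transcript with the longest coding sequence, an alternative chosen after seeing the data, AFDN at 23.1 ± 0.279 CPM per kilobase and CDH3 at 21.2 ± 1.54 exchanged places in SOX11 libraries and their ranges overlapped. In control libraries CDH3 at 23.6 ± 1.57 stayed above AFDN at 21.4 ± 0.691, again with overlapping ranges. The CTNNB1 level was 85.5 CPM per kilobase in SOX11 and 83.3 in control libraries on this length, since its annotated exons total 11927 bases and the transcript 3127. CTNNA1, CTNNB1, CDH1 and CTNND1 kept their ranks.

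**Figure D4:**
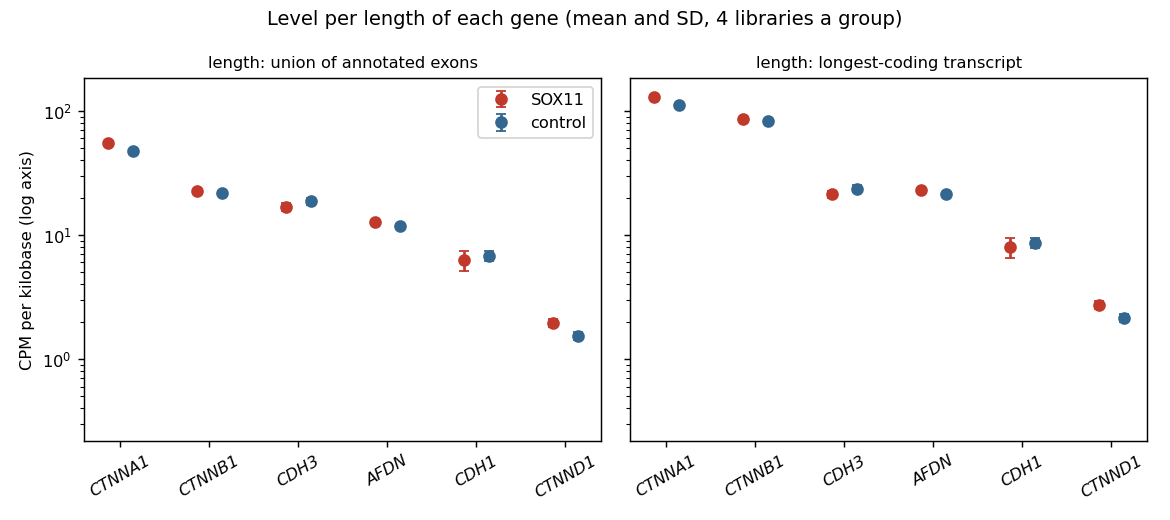
Mean and SD of CPM per kilobase (log axis) of the 6 genes in SOX11 (red) and control (blue) libraries, 4 each, with the union of annotated exons (left) or the transcript with the longest coding sequence (right) as the length. CTNNA1 is highest and CTNND1 lowest on both, while CDH3 and AFDN are close on the right.

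Genes with the most similar profile were found by the root mean square difference of log2 CPM, centred on the mean of the 8 libraries, over 14391 other genes with a symbol and a mean of at least 1 CPM. Such genes share the member's pattern by selection, so a like pattern or a like call is not separate evidence. For CTNNA1 these were LAPTM4B (difference 0.02), ZBTB17 (0.03) and PLIN2 (0.03), against a deviation of 0.11 of CTNNA1 itself. LAPTM4B, a lysosomal membrane protein gene, had 285, 286, 288 and 303 CPM in SOX11 replicates 1 to 4 and 250, 259, 253 and 257 CPM in control replicates 1 to 4, and so had its highest value in SOX11 replicate 4, as CTNNA1 did. For CTNND1 they were ZNF84 (0.05), AKAP6 (0.05) and C11orf54 (0.05), against 0.20 of CTNND1 itself.

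For CDH1 the nearest were TMEM37 (difference 0.08), PRAME (0.09) and MIF4GD-DT (0.09), against 0.19 of CDH1 itself. PRAME, a cancer-testis antigen gene, had 34.9, 32.4, 27.1 and 26.4 CPM in SOX11 replicates 1 to 4 and 32.6, 30.8, 33.4 and 31.1 CPM in control replicates 1 to 4. Like CDH1, whose profile it was picked to match, it was higher in SOX11 replicates 1 and 2 than in 3 and 4. Among control libraries it was highest in replicate 3. None of the 3 was called (edgeR adjusted p = 0.745 for TMEM37, 0.493 for PRAME and 0.922 for MIF4GD-DT). C11orf54 shares 13.4% of its exon bases with a gene on the same strand. The calls of 2 neighbours rested on single libraries or the tool. That of ZBTB17 ended without control replicate 1 (adjusted p = 0.0565), without SOX11 replicate 4 (0.0702) and with DESeq2 (0.0550). That of C11orf54 ended with DESeq2 (adjusted p = 0.0608), and its adjusted p was 0.111 with control replicate 2 left out, 0.0796 with control replicate 4 left out and 0.107 with SOX11 replicate 2 left out.

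Of 21 other cadherins listed, 13 had a row and 4 passed the filter on low counts. Of these 4, 1 was higher and 0 lower, against 10.3% higher and 9.67% lower among all 15665 tested genes. Their median log2 fold change was 0.09, against 0.00 over all tested genes. The photoreceptor cadherin gene CDHR1 rose to 20.2 ± 2.12 CPM in SOX11 libraries, against 15.9 ± 2.61 CPM in control libraries (log2 fold change 0.34, edgeR adjusted p = 0.0150). Its call ended without SOX11 replicate 1 (adjusted p = 0.0558) or control replicate 2 (0.0570). With SOX11 replicate 1 left out, 0 of the 4 were higher and 0 lower, against 16.4% of all genes called.

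Of all tested genes 10.3% were higher and 9.67% lower, and of 4 other catenin family genes tested 2 were higher and 1 lower. Their log2 fold changes were positive in 2 and negative in 2, so the median of 0.32 lies between values of opposite sign. JUP, which encodes plakoglobin, the close relative of beta-catenin found in desmosomes and adherens junctions, rose to 76.6 ± 6.31 CPM in SOX11, against 43.5 ± 2.98 CPM in control libraries (log2 fold change 0.82 ± 0.06, SE). ARVCF, a p120-related catenin gene, rose to 18.0 ± 0.516 CPM in SOX11, against 11.4 ± 0.598 CPM in control libraries (log2 fold change 0.65 ± 0.07). CTNNAL1, an alpha-catenin-like gene, fell to 236 ± 9.65 CPM in SOX11, against 294 ± 4.69 CPM in control libraries (log2 fold change -0.32 ± 0.03). The edgeR adjusted p was 1.40e-11 for JUP, 8.53e-08 for ARVCF and 1.15e-08 for CTNNAL1. Without SOX11 replicate 1 the log2 fold change was 0.76 for JUP, 0.65 for ARVCF and -0.30 for CTNNAL1, and all 3 remained called.

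Nectins and afadin partners moved in both directions. Of 12 tested, 2 were higher and 3 lower (10.3% and 9.67% of all tested genes), with a median of -0.07. Without SOX11 replicate 1 the counts were 0 and 3, against 16.4% of all genes called. LMO7, an afadin- and actinin-binding protein gene, fell to 133 ± 10.3 CPM in SOX11, against 178 ± 11.9 CPM in control libraries (log2 fold change -0.42, edgeR adjusted p = 3.73e-05). It shares 8.93% of its exon bases with another gene on the same strand. PVR, a nectin-like receptor gene, had a log2 fold change of -0.19 (adjusted p = 6.64e-05) and the small GTPase gene RAP1B one of -0.14 (adjusted p = 0.0100). The polarity gene PARD3 rose by 0.12 (adjusted p = 0.0180), but not without SOX11 replicate 1 (adjusted p = 0.0533), control replicate 1 (0.0666) or control replicate 2 (0.0584), nor with no filter (0.0543).

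Of the actin linkers, 19 were tested, 2 were higher and 5 lower (10.3% and 9.67% of all tested genes), with a median of -0.05. Leaving out SOX11 replicate 1 also gave 2 higher and 5 lower, against 16.4% of all genes called. The LIM protein genes TRIP6 (log2 fold change -0.35, edgeR adjusted p = 5.03e-06) and AJUBA (-0.23, 1.48e-05) fell, as did the actin crosslinkers ACTN1 (-0.19, 0.000829) and ACTN4 (-0.16, 0.00145). ACTN1 stood at 451 ± 23.5 CPM in SOX11 and 516 ± 28.7 CPM in control libraries. ACTN4 overlaps CAPN12 on the opposite strand over 14.2% of its exon bases.

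Genes of cadherin processing and turnover had 3 of 25 tested higher and 4 lower (10.3% and 9.67% of all tested genes), with a median of 0.01. Without SOX11 replicate 1 there were 3 higher and 3 lower, against 16.4% of all genes called. PTPRM, a homophilic receptor phosphatase that binds cadherin complexes, fell to 42.0 ± 1.18 CPM in SOX11, against 69.8 ± 4.96 CPM in control libraries (log2 fold change -0.73 ± 0.05, SE, edgeR adjusted p = 1.75e-12). Its relatives PTPRJ (0.38, adjusted p = 6.48e-07) and PTPRK (0.19, adjusted p = 0.00382) rose. The metalloprotease gene ADAM15 fell by 0.17 on the log2 scale (adjusted p = 0.000681).

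Among genes of p120-catenin and small GTPase signalling, 3 of 12 were higher and 2 lower (10.3% and 9.67% of all tested genes), with a median of -0.04. Without SOX11 replicate 1 there were 2 higher and 3 lower, against 16.4% of all genes called. ZBTB33, which encodes Kaiso, the p120-catenin-binding transcription factor, rose by 0.24 on the log2 scale (edgeR adjusted p = 0.00484), to 27.8 ± 2.07 CPM in SOX11 against 23.5 ± 1.02 CPM in control libraries. RND3, an atypical small GTPase gene, rose by 0.17 (adjusted p = 0.00396). The scaffold gene IQGAP1 fell by 0.12 (adjusted p = 0.00382) and the exchange factor gene ARHGEF1 by 0.13 (adjusted p = 0.0210). The ARHGEF1 call ended when any of 4 libraries was left out, with an adjusted p of 0.0839 and 0.0902 for control replicates 2 and 4 and of 0.0610 and 0.0787 for SOX11 replicates 2 and 4.

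Genes of beta-catenin destruction and transcription had 3 of 17 tested higher and 0 lower (10.3% and 9.67% of all tested genes), with a median of 0.04. The counts were likewise 3 and 0 without SOX11 replicate 1, against 16.4% of all genes called. All 17 had a log2 fold change above 0, against 50.3% of all tested genes, but 14 of the 17 were not called. The list median was smaller than the median absolute log2 fold change of all tested genes, 0.11. The 17 were also above 0 with RLE scaling, where 49.7% of all genes were, and with upper quartile scaling, where 52.3% were. With SOX11 replicate 1 left out, 14 of the 17 were above 0, with a median of 0.018, against 49.7% of all genes. LZTS2, whose product binds beta-catenin and promotes its nuclear export, rose by 0.41 (edgeR adjusted p = 1.50e-07), the coactivator gene BCL9 by 0.18 (adjusted p = 0.00159) and the WNT transcription factor gene TCF7L2 by 0.17 (adjusted p = 0.0119).

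The list of repressors and activators of CDH1 also holds the splicing factor genes ESRP1 and ESRP2. It had 3 of 13 tested higher and 1 lower (10.3% and 9.67% of all tested genes), with a median of -0.02. The counts were likewise 3 and 1 without SOX11 replicate 1, against 16.4% of all genes called. The repressor gene ZEB2 rose to 1.36, 1.60, 1.64 and 1.56 CPM in SOX11 replicates 1 to 4, against 0.319, 0.325, 0.275 and 0.554 CPM in control replicates 1 to 4 (log2 fold change 2.06 ± 0.29, SE, edgeR adjusted p = 3.93e-06). These levels rest on 22 to 27 counts in SOX11 and 4 to 8 counts in control libraries, and ZEB2 overlaps its antisense gene over 5.18% of its exon bases. The E-protein gene TCF3, whose products can bind E-boxes, rose by 0.26 (adjusted p = 3.38e-06) to 233 ± 12.3 CPM in SOX11, against 195 ± 6.71 CPM in control libraries. The epithelial splicing factor genes went opposite ways. ESRP2 fell by 0.24 on the log2 scale (adjusted p = 0.00218). ESRP1 had 3.83, 2.48, 2.13 and 2.21 CPM in SOX11 replicates 1 to 4, against 1.47, 1.68, 1.51 and 1.39 CPM in control replicates 1 to 4 (log2 fold change 0.81, adjusted p = 0.00497). Its highest value was in the library with the luminal markers, and without that library the log2 fold change was 0.58 (adjusted p = 0.0474).

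**Figure D5:**
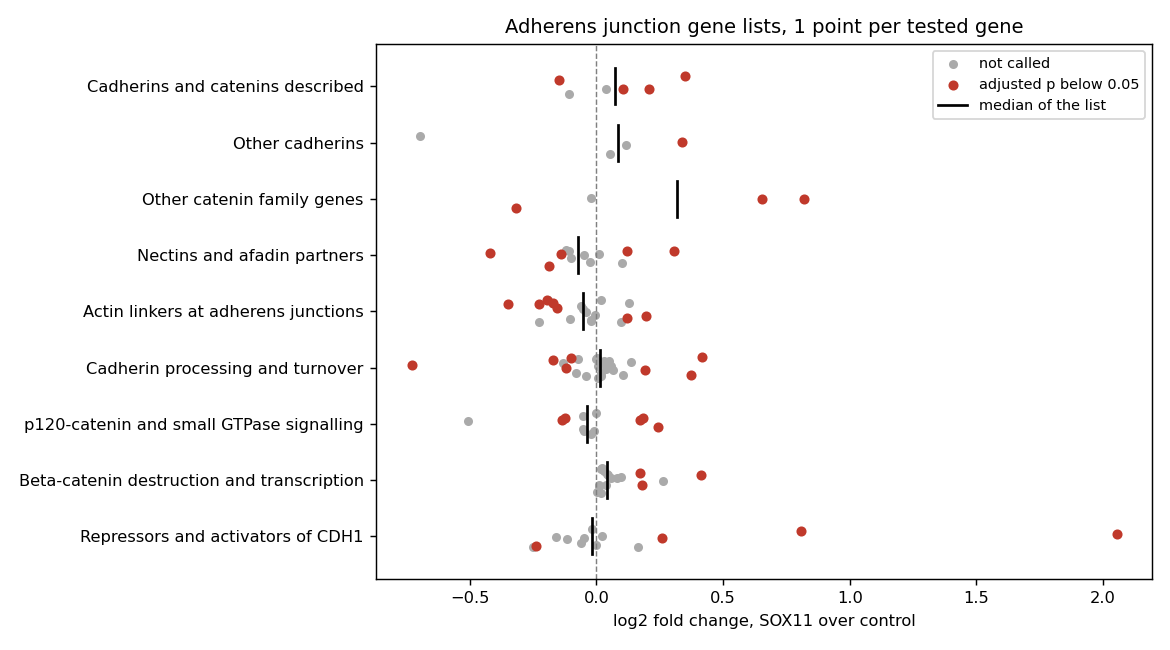
Log2 fold change, SOX11 over control, of each tested gene in the 6 described genes and 8 lists of adherens junction genes, with called genes in red, others in grey and the list median as a black line. Medians lie close to 0 except for the other catenin family genes at 0.32, and ZEB2 at 2.06 is the farthest point.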

How the data were processed

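Poly(A) RNA of 8 DU145 libraries was sequenced after TruSeq Stranded library preparation, per the labels' protocols. The authors deposited raw counts per Ensembl gene with 1 column a library. Cutadapt, FastQC, STAR 2.7.0e and GRCh38 are named in the submitters' processing notes. Their roles, the counter, its strand setting and the annotation were not given in the sources used here. Some luminal markers are not reported here. Names matched 32053 of 32066 identifiers.

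Genes were filtered with filterByExpr (minimum count 10) and tested with the quasi-likelihood test of edgeR 4.0.16 (TMM, robust) in R 4.3.3, and p-values were adjusted by Benjamini-Hochberg over 15665 genes. The SE is the log2 fold change divided by the root of its F statistic. Coordinates and lengths are from GENCODE 29, promoters from RefSeq (GRCh38.p14), and alignments used Biopython 1.88. The fit was also run on simulated counts with known fold changes. Its outcome is not reported here, and no call above rests on it.

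Genes named are the 6 measured members, up to 4 called genes a list with the smallest adjusted p, and the 3 nearest profiles of CDH1, CTNNA1 and CTNND1. Members and lists were chosen with earlier results of these data known, and the motifs, and list counts without SOX11 replicate 1, were chosen after seeing the data. Alternatives were leaving out each library in turn, a replicate block, RLE and upper quartile factors, totals that omit SOX11, a stricter filter (1 CPM in 4 libraries) or none, DESeq2 1.42.0 and limma-voom (limma 3.58.1). No 2 libraries of a group were alike within sampling noise (chi-square per degree of freedom 1.43 to 3.30).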

Additional observations from a re-analysis of the deposited data

Results flagged for a closer look

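Within groups of 4 libraries, 66 gene and group combinations were checked for 1 library far from the other 3, and 7 stood out, where chance flags about 1 in 20. All 7 were in the SOX11 group. JUP was at 85.9 CPM in SOX11 replicate 1 and at 72.5 to 74.6 CPM in the other 3. RND3 was at 70.3 CPM in SOX11 replicate 1 and at 78.9 to 79.3 CPM in the others. In SOX11 replicate 2, LMO7 was at 148 CPM (126.6 to 130.1 CPM in the others), TRIP6 at 58.9 CPM (62.5 to 62.7 CPM) and ACTN1 at 416 CPM (458 to 466 CPM). In SOX11 replicate 4, ARVCF was at 17.2 CPM (18.2 to 18.3 CPM in the others) and PTPRM at 40.2 CPM (42.4 to 42.8 CPM).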

How the results depend on the processing

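No direction of the 6 genes changed in any of 16 alternatives, and the calls of CTNNA1 and CTNND1 held in all. CDH3 had a log2 fold change of -0.14 with upper quartile scaling (adjusted p = 0.0596) and -0.19 to -0.12 with 1 library left out. AFDN had 0.10 with no filter (adjusted p = 0.0730) and 0.084 to 0.12 with 1 library left out. Between 2 and 4 members were called with 1 library left out. All genes called numbered 2466 to 3057 with 1 library left out, of 15799 to 15985 tested. DESeq2 called 2389 of 15665, against 3130 of 15665 in the main fit. With 1 library left out, 2 genes near CDH1 in profile changed sign. TMEM37 ran from -0.21 to 0.011, above 0 without control replicate 3, and MIF4GD-DT from -0.10 to 0.044, above 0 without control replicate 3 (0.02) or SOX11 replicate 3. Deviations of same-numbered SOX11 and control libraries correlated at -0.33 to 0.24, and those of differently numbered libraries at -0.28 to 0.33. These values show no clear pairing by replicate number but cannot exclude it. Whether libraries shared a batch was not tested. With the replicate number as a block 4 members and 2899 genes were called, and no member's call changed. The cause of these changes was not tested. ZEB2 (4 to 27 counts a library) and ESRP1 (20 to 62) rest on few counts. CTNND1 had the fewest counts of the 6 genes (187 to 314 a library).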
